A study of Arabidopsis thaliana with 12 samples.

Results

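The genes described here are 9 leaf senescence transcription factors of Arabidopsis thaliana and 1 senescence protease. They are the NAC factors NAC019, NAC055, NAC072 (also RD26), ORE1 (NAC092), NAP (NAC029), JUB1 (NAC042) and ORS1, the WRKY factors WRKY53 and WRKY75, and the cysteine protease gene SAG12. They were chosen by their TAIR locus codes, which are given with their TAIR10.1 coordinates below. All 10 were found in each deposited table, out of 25169 genes in all, and all 10 passed the low-count filter that left 19424 genes for testing.

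RNA was measured in rosette leaves of melinoe and of wild-type Col-0. The melinoe line came from ethyl methanesulfonate mutagenesis and carries a mutation in AtFMN/FHY. The protein has a riboflavin kinase activity, which yields the cofactor FMN, and an FMN hydrolase activity. The mutant was sampled as green, green-white and white leaves, so there were 3 mutant groups and 1 wild-type group, with 3 libraries in each. All plants were stratified for 48 h, spent 2 weeks on medium with 1% sucrose and then grew in soil at 22 °C under 16 h of light at 75 µmol m−2 s−1 and 8 h of dark. The labels call the libraries biological replicates without saying whether 1 plant or a pool went into each, so p-values measure only the spread between these libraries. The mutant line is a single chemically induced allele, and a second allele or a complemented line was not analysed here.

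NAC and WRKY proteins are families of DNA-binding transcription factors found in plants, and several members of each control the onset and pace of leaf senescence. In senescence a leaf dismantles its chloroplasts, breaks down chlorophyll and protein, and exports the nutrients. NAC019, NAC055 and NAC072 are closely related factors induced by abscisic acid, jasmonate and drought, and they activate genes of chlorophyll breakdown. ORE1, its relative ORS1 and NAP promote senescence, whereas JUB1 delays it. WRKY53 and WRKY75 promote senescence, and SAG12 is the classic marker of late, age-dependent senescence.

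Library totals lay between 25795702 and 26760055 estimated counts. Levels are read counts relative to the library total (CPM) scaled by TMM factors, and these factors followed the groups: 1.08 to 1.12 for both classes with white tissue, against 0.903 to 0.929 for green leaves and wild type. Scaling by library totals alone would put the median log2 fold change of all genes at 0.22 to 0.29 wherever green-white or white leaves are set against green leaves or wild type, and small differences there depend on the scaling. AtFMN/FHY itself was at 21.4 to 22.7 CPM in green, 23.5 to 23.7 CPM in green-white and 23.9 to 25.2 CPM in white leaves, against 22.0 to 24.5 CPM in wild type. The level of a gene hit by a chemical mutagen does not check the genotype. Leaf mesophyll markers (RBCS1A, RCA, LHCB1.3, LHCB2.1 and CA1) were present in every library. Their summed level was 62831 to 66885 CPM in green, 33168 to 34148 CPM in green-white and 23392 to 24080 CPM in white leaves, against 60139 to 61374 CPM in wild type. Of these 5 markers, 2 were called higher and 2 lower in green leaves, and all 5 were lower in green-white and in white leaves. In such bulk samples, fewer cells of a type and less RNA per cell cannot be told apart.

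NAC019, NAC055 and NAC072 were higher than wild type in all 3 mutant leaf classes. NAC019 (AT1G52890, chr1:19696923-19698482, minus strand) had 174, 166 and 172 CPM in the green libraries, 244, 241 and 229 CPM in the green-white libraries and 260, 255 and 253 CPM in the white libraries, against 32.4, 33.3 and 35.3 CPM in wild type. Each class stood clear of the others, in the order white, green-white, green and wild type. Set against wild type, green leaves gave a log2 fold change of 2.34 ± 0.04 (SE; adjusted p = 7.6e-30), green-white leaves 2.82 ± 0.04 (adjusted p = 2.1e-32) and white leaves 2.93 ± 0.04 (adjusted p = 1.7e-33; edgeR's quasi-likelihood test with Benjamini-Hochberg adjustment over all genes tested, as for every adjusted p here). White exceeded green leaves by a log2 fold change of 0.58 ± 0.03 (adjusted p = 9.1e-17) and green-white leaves by 0.10 ± 0.03 (adjusted p = 0.0046). The difference between white and green-white leaves was not called without the library green-white C (adjusted p = 0.053).

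NAC055 (AT3G15500, chr3:5234457-5236196, plus strand), the closest relative of NAC019 in these sequences, had 66.7, 62.8 and 64.9 CPM in green, 79.7, 74.8 and 73.8 CPM in green-white and 98.9, 99.9 and 99.3 CPM in white leaves, against 20, 21.2 and 20.6 CPM in wild type. The 4 groups did not overlap and fell in the same order as for NAC019. Set against wild type, green leaves gave a log2 fold change of 1.65 ± 0.05 (adjusted p = 4.1e-24), green-white leaves 1.88 ± 0.04 (adjusted p = 2e-26) and white leaves 2.27 ± 0.04 (adjusted p = 3.4e-29). White exceeded green-white leaves by 0.38 ± 0.04 (adjusted p = 5.1e-11).

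NAC072 (AT4G27410, chr4:13707192-13709170, minus strand) differed from that order, because its highest level was in green-white leaves. It had 184, 179 and 176 CPM in green, 217, 223 and 221 CPM in green-white and 163, 163 and 153 CPM in white leaves, against 80.9, 86.8 and 76.7 CPM in wild type. White leaves were the lowest of the 3 mutant classes, and their libraries did not overlap with those of green leaves. Green leaves exceeded wild type by a log2 fold change of 1.14 ± 0.04 (adjusted p = 3.2e-22), green-white leaves by 1.43 ± 0.04 (adjusted p = 1.8e-25) and white leaves by 0.97 ± 0.04 (adjusted p = 5.2e-21). White was below green-white leaves by a log2 fold change of −0.47 ± 0.03 (adjusted p = 3.1e-13) and below green leaves by −0.17 ± 0.04 (adjusted p = 6.3e-05). The difference between white and green leaves turned to 0.10 (adjusted p = 0.007) when libraries were scaled by their totals alone.

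Levels of different genes can be set side by side only per length, so CPM were also divided by the annotated exon length of each gene in kilobases (kb). Of the summed CPM per kb of these 3 genes, NAC019 held 47.8 ± 0.463% in green leaves, 51.4 ± 0.705% in green-white leaves and 55.9 ± 0.408% in white leaves, against 30.5 ± 1.76% in wild type (SD, n = 3 each). The share of NAC072 was 36.1 ± 0.592% in green leaves, 34.1 ± 0.963% in green-white leaves and 25 ± 0.53% in white leaves, against 53 ± 1.97% in wild type. NAC072 was thus the most abundant of the 3 per length in wild type, and NAC019 was in each mutant class. The length used covers the exons of all annotated transcripts, 1896 bases for NAC072 with 3 transcripts and 1361 for NAC019 with 1. In green leaves mean CPM was 180 for NAC072 and 171 for NAC019, so their order per length there rests on these lengths. The coding sequences of NAC019 and NAC055 were identical at 80.4% of 927 aligned bases, those of NAC019 and NAC072 at 72.7% of 877, and those of NAC055 and NAC072 at 71.3% of 879.

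**Figure D1:**
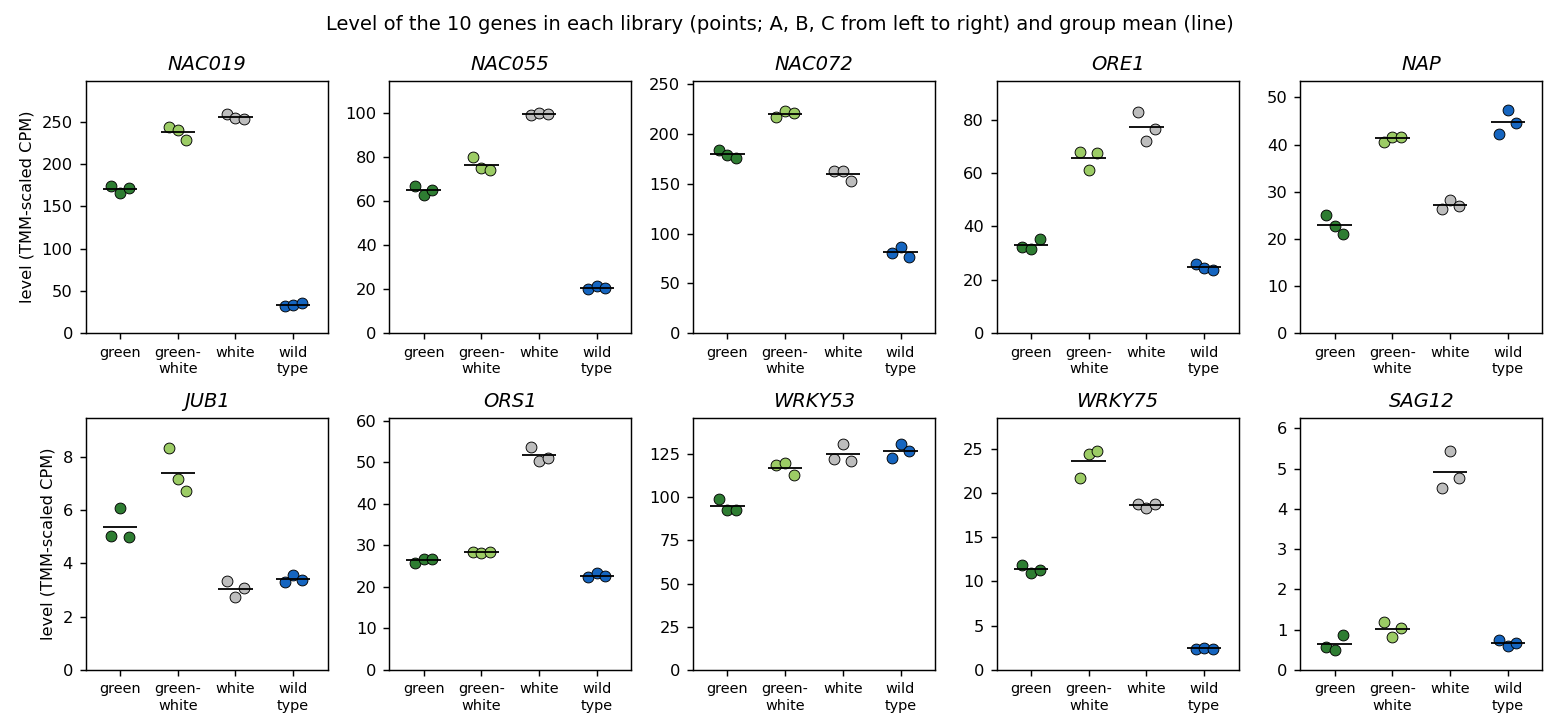
Level of each of the 10 genes in TMM-scaled CPM (vertical axes, starting at 0) in the 3 libraries of green, green-white and white melinoe leaves and of wild type; points are libraries A, B and C and lines are group means. NAC019, NAC055 and WRKY75 stand above wild type in every mutant library, NAP stands below it in each, and SAG12 is at 4.53 to 5.45 CPM in white leaves and at most 1.18 CPM elsewhere.

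ORE1 and ORS1 are a pair of related senescence-promoting NAC genes, and both were highest in white leaves. ORE1 (AT5G39610, chr5:15858398-15859911, minus strand) had 32.1, 31.7 and 35.3 CPM in green, 67.9, 61.2 and 67.7 CPM in green-white and 83.0, 72.1 and 76.7 CPM in white leaves, against 25.8, 24.5 and 23.6 CPM in wild type. No groups overlapped, and the wide gap lay between green and green-white leaves. Set against wild type, green leaves gave a log2 fold change of 0.43 ± 0.06 (adjusted p = 6.3e-07), green-white leaves 1.41 ± 0.06 (adjusted p = 1.4e-20) and white leaves 1.65 ± 0.05 (adjusted p = 8.4e-23). Green-white exceeded green leaves by 0.99 ± 0.05 (adjusted p = 1.3e-16), and white exceeded green-white leaves by 0.24 ± 0.05 (adjusted p = 5.5e-05).

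For ORS1 (AT3G29035, chr3:11033665-11035308, plus strand) the wide gap lay one class later. It had 25.8, 26.7 and 26.7 CPM in green, 28.3, 28.2 and 28.4 CPM in green-white and 53.7, 50.4 and 51.1 CPM in white leaves, against 22.3, 23.4 and 22.5 CPM in wild type. Green leaves exceeded wild type by a log2 fold change of 0.22 ± 0.05 (adjusted p = 0.00042), green-white leaves by 0.32 ± 0.05 (adjusted p = 7.6e-07) and white leaves by 1.19 ± 0.04 (adjusted p = 1.8e-21). White exceeded green-white leaves by 0.87 ± 0.04 (adjusted p = 4.3e-18). Green-white and green leaves did not overlap, but the difference of 0.10 ± 0.05 was not called (adjusted p = 0.064, 95% interval 0.01 to 0.20). It was called at 0.12 with RLE factors (adjusted p = 0.029) and at 0.33 with library totals alone (adjusted p = 2.8e-07). Per length, ORE1 held 57.7 ± 1.32% of the summed CPM per kb of the pair in green leaves, 71.6 ± 1.16% in green-white leaves and 62 ± 0.945% in white leaves, against 54.2 ± 1.37% in wild type (SD, n = 3 each). The coding sequences of the pair were identical at 81.3% of 825 aligned bases, the highest identity among the NAC members.

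ORE1 is known to be held down in young leaves by the microRNA miR164, so the place where the pair differ in the matching stretch is shown. The lines below give mature miR164a with its seed (bases 2 to 8) in capitals, then the best-matching window of each coding sequence with the bases that pair with miR164a in capitals; all were read from TAIR10.1, with its annotation.
miR164a: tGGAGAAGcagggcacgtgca
ORE1: ctCACGTGaCCTGCTTCTCCg
ORS1: ctCACGTtaCCTaCTTCTCCg
The mature sequences of MIR164A and MIR164B are the same, and that of MIR164C ends in another base. The ORE1 window lies at chr5:15858797-15858817 on the minus strand, in an exon and from base 632 of the coding sequence, and 4 of its 21 bases do not pair. The ORS1 window lies at chr3:11034693-11034713 on the plus strand, from base 644 of the coding sequence, and 6 bases do not pair. G:U pairs were counted as not pairing. Of 27437 coding genes, 11 held a window with 4 or fewer unpaired bases, ORE1 among them, and the other 8 factors and SAG12 missed at least 6. A match of letters is a description and not evidence of cleavage. The microRNA genes themselves were not analysed here. Of the other NAC genes with such a window, NAC1, which acts in root development, had 19.2 CPM in green, 11.5 CPM in green-white and 13 CPM in white leaves, against 21.4 CPM in wild type, and its log2 fold change in white leaves was −0.72 ± 0.06 (adjusted p = 5.2e-12). NAC080 and NAC100 were at 0.755 to 1.76 CPM on average in every group, and each was lower in white leaves (adjusted p = 0.0061 for NAC080 and 0.03 for NAC100). CUC1 and CUC2, the boundary genes, were below the low-count filter.

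NAP (AT1G69490, chr1:26122080-26123514, plus strand), a senescence-promoting factor that acts with abscisic acid, went against the other NAC genes. It had 25, 22.8 and 21 CPM in green, 40.6, 41.7 and 41.7 CPM in green-white and 26.3, 28.2 and 26.9 CPM in white leaves, against 42.3, 47.3 and 44.6 CPM in wild type. Green and white leaves were far below wild type, and green-white leaves were just below it. NAP fell below wild type by a log2 fold change of −0.96 ± 0.05 in green leaves (adjusted p = 2.8e-16). It was lower in white leaves as well, at −0.72 ± 0.05 (adjusted p = 3.6e-14). In green-white leaves it was −0.11 ± 0.05 (adjusted p = 0.033), and this call did not survive most alternatives. It was lost with RLE factors (adjusted p = 0.094), with DESeq2 (adjusted p = 0.17), and without the library green-white A, green-white B, wild type B or wild type C (adjusted p from 0.052 to 0.48), and with library totals alone the value was 0.14 (adjusted p = 0.0097). In the authors' deposited table the log2 fold change of NAP in green-white leaves was −0.07 with a q-value of 0.32. Green-white exceeded green leaves by 0.85 ± 0.05 (adjusted p = 6.4e-15), and white was below green-white leaves by −0.61 ± 0.05 (adjusted p = 4.6e-12).

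JUB1 (AT2G43000, chr2:17880457-17882636, minus strand), the only factor of the 9 known mainly as a brake on senescence, was also highest in green-white leaves, at a low level. It had 5.01, 6.06 and 5 CPM in green, 8.33, 7.18 and 6.73 CPM in green-white and 3.34, 2.73 and 3.09 CPM in white leaves, against 3.29, 3.56 and 3.39 CPM in wild type. White leaves overlapped with wild type, while green and green-white leaves lay above it. Green leaves exceeded wild type by 0.65 ± 0.12 (adjusted p = 3.4e-05) and green-white leaves by 1.12 ± 0.11 (adjusted p = 1.9e-10). In white leaves it was −0.16 ± 0.13 and not called (adjusted p = 0.27, 95% interval −0.43 to 0.11). White was below green leaves by −0.81 ± 0.12 (adjusted p = 5.4e-07) and below green-white leaves by −1.28 ± 0.11 (adjusted p = 9.8e-12). JUB1 overlaps 107 bases of AT2G42990 on the opposite strand, a gene at 0.055 to 0.221 CPM on average in every group. The libraries were strand-specific, per the labels, but the strand setting of the counting is not given in the sources used here.

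WRKY75 (AT5G13080, chr5:4149738-4151201, minus strand) reached a larger log2 fold change than any other of the 10 genes, in green-white leaves, and exceeded wild type in every mutant class. It had 11.8, 11 and 11.3 CPM in green, 21.7, 24.4 and 24.8 CPM in green-white and 18.7, 18.3 and 18.7 CPM in white leaves, against 2.35, 2.48 and 2.40 CPM in wild type. The 4 groups did not overlap, with green-white leaves at the top. Set against wild type, green leaves gave a log2 fold change of 2.24 ± 0.10 (adjusted p = 1.4e-18), green-white leaves 3.29 ± 0.09 (adjusted p = 2.5e-25) and white leaves 2.95 ± 0.09 (adjusted p = 9.1e-24). White was below green-white leaves by −0.35 ± 0.05 (adjusted p = 1.8e-06).

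WRKY53 (AT4G23810, chr4:12392370-12393982, minus strand), an early senescence factor, did not rise over wild type in any class. It had 99.1, 92.7 and 92.7 CPM in green, 119, 120 and 113 CPM in green-white and 122, 131 and 121 CPM in white leaves, against 123, 131 and 127 CPM in wild type. Green leaves were lowest, and white leaves overlapped with wild type. It fell in green leaves by a log2 fold change of −0.42 ± 0.04 (adjusted p = 3.7e-11), and white leaves gave −0.02 ± 0.04 (adjusted p = 0.61, 95% interval −0.10 to 0.05). In green-white leaves the value was −0.11 ± 0.04 (adjusted p = 0.0077), which was not called with DESeq2 (adjusted p = 0.056) or without green-white C, wild type B or wild type C (adjusted p from 0.055 to 0.21), and was 0.14 with library totals alone (adjusted p = 0.00091). For white leaves, library totals alone gave 0.27 (adjusted p = 3.8e-08) and upper-quartile factors gave −0.10 (adjusted p = 0.016). Among the mutant classes, white exceeded green leaves by 0.40 ± 0.04 (adjusted p = 5.1e-11) and green-white leaves by 0.09 ± 0.04 (adjusted p = 0.029). That last call was lost under RLE or upper-quartile factors (adjusted p = 0.054 each), with DESeq2 (0.086), without a low-count filter (0.053) and without green-white C (0.15) or white B (0.22). WRKY53 overlaps 341 bases of AT4G23800 (3xHMG-box2) on the opposite strand, which was at 1.95 CPM in green, 2.79 CPM in green-white and 1.63 CPM in white leaves, against 5.27 CPM in wild type. The WRKY53 counts are fractional in every library, so its values are uncertain, by an amount that was not measured.

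SAG12 (AT5G45890, chr5:18613239-18614963, plus strand) was low in every group and highest in white leaves. It had 14, 12 and 21 counts in the green libraries, 34, 23 and 30 in the green-white libraries and 130, 156 and 137 in the white libraries, against 18, 14 and 16 in wild type. These counts correspond to 0.575, 0.491 and 0.861 CPM in green, 1.18, 0.814 and 1.05 CPM in green-white and 4.53, 5.45 and 4.76 CPM in white leaves, against 0.741, 0.58 and 0.661 CPM in wild type. White leaves stood clear of all other libraries, and green leaves overlapped with wild type. White leaves exceeded wild type by a log2 fold change of 2.89 ± 0.18 (adjusted p = 1.4e-15), and green leaves gave −0.04 ± 0.29 (adjusted p = 0.92, 95% interval −0.64 to 0.56). In green-white leaves it was 0.62 ± 0.25 (adjusted p = 0.03), a call that was lost with upper-quartile factors (adjusted p = 0.054) and without green-white A (0.12), green-white C (0.063) or wild type B (0.08). In the authors' deposited table the q-value for this comparison was 0.14. Within the mutant, white exceeded green leaves by 2.93 ± 0.18 (adjusted p = 1.7e-15) and green-white leaves by 2.27 ± 0.15 (adjusted p = 4.2e-14). Green-white over green leaves gave 0.66 ± 0.25 (adjusted p = 0.027) with overlapping libraries, and was not called without green A, green B, green-white A or green-white C (adjusted p from 0.061 to 0.13).

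Markers of other organs and cell types moved in the same libraries. All 5 seed markers (CRA1, CRU3, OLEO1, AT2S3 and EM6) were called higher in white leaves, where their summed level was 35.4 to 40.2 CPM; it was 0.0822 to 0.287 CPM in green and 0.558 to 0.767 CPM in green-white leaves, against 0.248 to 0.576 CPM in wild type. Xylem markers, of interest because vessel cells also express papain-like proteases, summed to 8.71 to 11.2 CPM in green, 19.8 to 21.8 CPM in green-white and 13.1 to 15.1 CPM in white leaves, against 37.6 to 38.3 CPM in wild type, and 6 of 7 tested were lower in each class, with SND1 at 0 throughout. The xylem markers XCP1 and XCP2, at 5.88 and 14.3 CPM in wild type, are also in the protease list below, so these lists are not separate. Phloem markers summed to 589 to 598 CPM in green, 455 to 460 CPM in green-white and 278 to 285 CPM in white leaves, against 644 to 650 CPM in wild type. Of the root markers, RHD6 and EXPA7 were at 0 in all 12 libraries, and SCR averaged 19.7 CPM in green, 18 CPM in green-white and 24.1 CPM in white leaves, against 20.9 CPM in wild type; SCR was called lower in green-white leaves (−0.21) and higher in white leaves (0.20). The part of these markers, and of the mesophyll markers, in the results on the 10 genes was not tested.

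**Figure D2:**
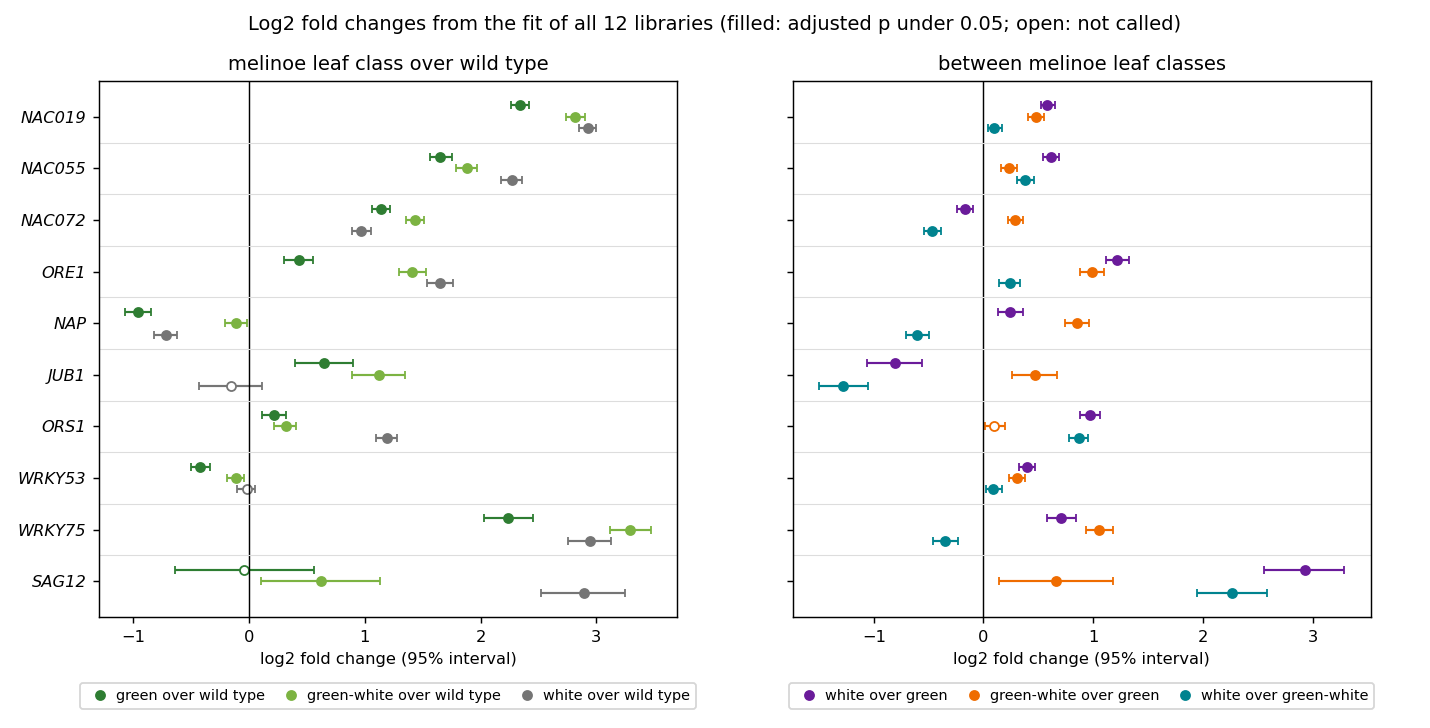
Log2 fold changes of the 10 genes with 95% intervals, for each melinoe leaf class over wild type (left) and between melinoe leaf classes (right); filled points had an adjusted p under 0.05 and open points did not. NAC019, NAC055, NAC072, ORE1, ORS1 and WRKY75 lie right of 0 in all 3 comparisons with wild type, and SAG12 lies far right only in comparisons that involve white leaves.

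Counted together, 7 of the 10 genes were called higher and 2 lower in green leaves over wild type, beside 58.3% of all genes tested called in either direction (28.7% higher and 29.6% lower). In green-white leaves 8 were higher and 2 lower, beside 72.9% of all genes called (34.1% higher and 38.8% lower). Those 2 are NAP and WRKY53, and between 0 and 2 genes were called lower when 1 library was left out: 0 without wild type B or wild type C, and 1 without green-white A, B or C. In white leaves 7 were higher and 1 lower, beside 79.9% of all genes (39.9% higher and 40.0% lower). With so many genes called, a call by itself says little, so the direction and size of the members are given. The 10 genes were chosen with earlier results of these data known, so these values describe the members and are not a test of them. The median log2 fold change of the 10 genes over wild type was 0.54 for green, 1.27 for green-white and 1.42 for white leaves, where the median of all genes tested lay between −0.04 and 0. The 3 comparisons share the wild-type libraries. Of all genes tested, 5.06% were called and at least 2-fold higher for green, 8.34% for green-white and 10.7% for white leaves. A log2 fold change of at least 1 was reached by NAC019, NAC055, NAC072 and WRKY75 in green leaves, by these and ORE1 and JUB1 in green-white leaves, and by NAC019, NAC055, ORE1, ORS1, WRKY75 and SAG12 in white leaves.

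Between the mutant classes, 8 genes were called higher and 2 (NAC072 and JUB1) lower in white over green leaves, beside 72.6% of all genes called (36.3% in each direction), and the median of the 10 was 0.60. With library totals alone 1 was lower, JUB1. In green-white over green leaves 9 were higher and, with all 10 log2 fold changes positive, none was lower, beside 59.5% of all genes called (29.6% higher and 29.9% lower), with a median of 0.47. In white over green-white leaves 6 were higher and 4 (NAC072, NAP, JUB1 and WRKY75) lower, beside 64.3% of all genes called (33.5% higher and 30.8% lower), with a median of 0.10. Over all genes, the share of called genes that were higher was 46.8% in green-white and 49.9% in white leaves over wild type, and 69.9% and 68.4% with library totals alone. For green-white over green leaves it was 49.7%, and 80% with library totals alone, and for white over green leaves 50%, and 73.5% with library totals alone.

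Per length, the order of the 10 genes differed between mutant and wild type. In green leaves NAC019 led at a mean of 125 CPM per kb, before NAC072 at 94.8 and WRKY53 at 62.6 CPM per kb. The order of NAC019 and NAC072 there rests on the exon lengths used, as given above. Green-white leaves had the same 3 in front, with NAC019 at 175, NAC072 at 116 and WRKY53 at 77.5 CPM per kb, and so did white leaves, with 188, 84.1 and 82.5 CPM per kb. In wild type WRKY53 led at 83.7 CPM per kb, followed by NAC072 at 43, NAP at 35.7 and NAC019 at 24.7 CPM per kb. Neighbours in this order whose libraries overlapped were ORS1 and NAP in green leaves, ORE1 and NAC055 in green-white leaves, and NAC072 and WRKY53 in white leaves. SAG12 was last in green leaves (0.492 CPM per kb), green-white leaves (0.777) and wild type (0.506), and was above JUB1 in white leaves, at 3.76 against 2.22 CPM per kb.

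Of the summed CPM per kb of the 9 factors, WRKY53 held 15.5 ± 0.318% in green leaves, 14 ± 0.252% in green-white leaves and 14.7 ± 0.626% in white leaves, against 34.8 ± 0.349% in wild type (SD, n = 3 each). WRKY53 thus took a smaller share in every mutant library than in wild type, although its own level differed little outside green leaves.

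**Figure D3:**
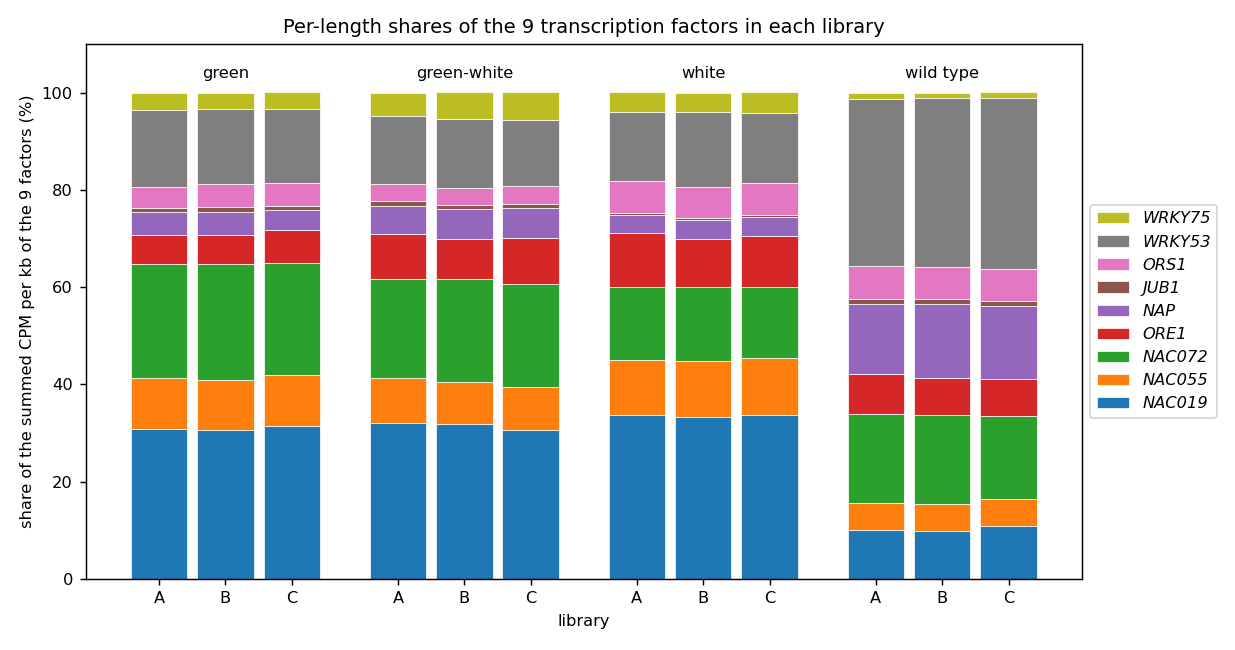
Share of the summed CPM per kb of the 9 transcription factors held by each (vertical axis, in percent) in the 12 libraries, one bar per library, grouped as green, green-white and white melinoe leaves and wild type. WRKY53 takes about the same share in all 9 mutant bars and a larger one in wild type, and NAC019 takes the largest share in each mutant bar.

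The sequences upstream of the members were searched for letters bound by factors of these pathways: the W-box core TTGAC (WRKY factors), the G-box CACGTG and the ABRE core ACGTG (bZIP and bHLH factors of abscisic acid and jasmonate signalling), on both strands, in the 300 bases before each annotated gene start in TAIR10.1. The ABRE core overlaps every G-box. A W-box was found in 5 of 10 members and in 50.4% of 27443 promoters, a G-box in 2 of 10 and in 7.1%, and an ABRE core in 4 of 10 and in 25.6%. The W-box is thus as common among the members as among all promoters, and the counts for the others are small. The windows of NAC019, NAC055 and WRKY75, which had the largest fold changes over wild type among the factors, and of NAP, which fell, are printed with matches in capitals. They lie at chr1:19698483-19698782 (minus strand) for NAC019, chr3:5234157-5234456 (plus strand) for NAC055, chr5:4151202-4151501 (minus strand) for WRKY75 and chr1:26121780-26122079 (plus strand) for NAP.
NAC019: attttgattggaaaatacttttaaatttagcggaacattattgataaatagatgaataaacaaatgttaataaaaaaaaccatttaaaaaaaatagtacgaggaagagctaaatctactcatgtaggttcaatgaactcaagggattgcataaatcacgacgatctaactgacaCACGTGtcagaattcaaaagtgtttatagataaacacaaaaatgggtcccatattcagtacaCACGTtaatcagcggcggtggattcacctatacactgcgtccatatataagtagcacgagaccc
NAC055: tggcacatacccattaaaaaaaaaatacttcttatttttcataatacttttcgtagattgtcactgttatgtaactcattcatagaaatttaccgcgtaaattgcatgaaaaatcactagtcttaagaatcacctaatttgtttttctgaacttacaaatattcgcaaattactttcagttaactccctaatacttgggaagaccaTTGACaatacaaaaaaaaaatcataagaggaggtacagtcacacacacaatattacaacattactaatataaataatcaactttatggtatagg
WRKY75: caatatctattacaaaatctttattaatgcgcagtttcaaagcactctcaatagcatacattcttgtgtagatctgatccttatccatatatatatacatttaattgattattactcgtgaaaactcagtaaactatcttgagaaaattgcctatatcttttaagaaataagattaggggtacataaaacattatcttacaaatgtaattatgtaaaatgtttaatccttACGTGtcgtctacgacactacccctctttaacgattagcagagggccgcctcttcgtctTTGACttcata
NAP: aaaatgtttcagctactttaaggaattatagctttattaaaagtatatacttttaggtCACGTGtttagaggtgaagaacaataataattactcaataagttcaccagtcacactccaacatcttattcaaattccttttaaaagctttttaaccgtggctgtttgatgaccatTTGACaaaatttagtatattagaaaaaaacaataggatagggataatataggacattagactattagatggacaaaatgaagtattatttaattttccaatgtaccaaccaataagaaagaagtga
NAC019 holds a G-box that starts 126 bases before the annotated start and a further ABRE core 64 bases before it. NAC055 holds a W-box at 94 bases and neither of the other motifs. WRKY75 holds an ABRE core at 70 bases and a W-box at 11 bases. NAP, with the opposite direction, holds a G-box at 242 bases and a W-box at 126 bases. A match is a description of letters, and a missing match says only that these letters are not in the window.

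Most other regulators of leaf senescence were called higher than wild type. Of 22 such NAC and WRKY genes that are not members, 17 were called higher and 2 lower in green leaves (median log2 fold change 0.68), 16 higher and 3 lower in green-white leaves (0.86) and 19 higher and 2 lower in white leaves (0.81), all over wild type, where the medians of all genes tested lay between −0.04 and 0. Over all genes tested, the shares in green, green-white and white leaves were 28.7%, 34.1% and 39.9% higher and 29.6%, 38.8% and 40% lower. The 2 regulators called lower in green leaves, WRKY22 and WRKY70, became 1 without the library green C or wild type C. The 2 regulators called lower in white leaves became 1 with library totals alone. NAC087, a regulator of programmed cell death in the root cap, had a mean of 4.73 CPM in green, 17.9 CPM in green-white and 37.4 CPM in white leaves, against 2.5 CPM in wild type. Its log2 fold change in white leaves was 3.90 ± 0.08 (adjusted p = 1.6e-28). ATAF2 (1.64 ± 0.03), WRKY6 (1.62 ± 0.04), a factor of senescence and phosphate responses, and NAC102 (1.43 ± 0.03) also rose in white leaves. NAC056 fell in white leaves (−0.92 ± 0.05, adjusted p = 3.4e-16), as did the membrane-tethered NTL9 by a small amount (−0.23 ± 0.05, adjusted p = 5.3e-05), which is less than the 0.29 by which scaling to library totals shifts all genes in that comparison.

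Both families were also counted apart from the members, as named by the reference annotation. These counts include 12 of the 22 regulators above among the NAC genes and 9 among the WRKY genes, so the lists are not separate. Of 55 NAC genes tested, 27 were higher and 9 lower in green leaves, 31 and 13 in green-white leaves and 31 and 17 in white leaves, with medians of 0.26, 0.38 and 0.35. Of 54 WRKY genes tested, 30 were higher and 11 lower in green leaves, 31 and 13 in green-white leaves and 34 and 12 in white leaves, with medians of 0.36, 0.47 and 0.43. Beside these counts, 28.7%, 34.1% and 39.9% of all genes tested were higher and 29.6%, 38.8% and 40% lower, in the same order of classes. The 11 WRKY genes lower in green leaves became 7 with DESeq2 and without the library green A or wild type A. With library totals alone, 6 NAC genes and 6 WRKY genes were lower in green-white leaves, and 6 WRKY genes in white leaves. NAC003 (2.98 ± 0.08 in white leaves), WRKY40 (1.49 ± 0.03), a stress and defence factor, WRKY26 (1.71 ± 0.04) and WRKY15 (1.14 ± 0.03) rose, whereas NAC036 (−0.99 ± 0.04), WRKY17 (−1.12 ± 0.08) and WRKY11 (−0.56 ± 0.04) fell.

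Genes known as targets or partners of the members were more often called higher than lower, with some in each direction. Of 19 tested, 12 were called higher and 6 lower in green leaves, 13 and 5 in green-white leaves and 12 and 4 in white leaves, with medians of 0.29, 0.49 and 0.56. Of all genes tested, 28.7%, 34.1% and 39.9% were higher and 29.6%, 38.8% and 40% lower in these 3 classes. SAG13, a senescence-associated dehydrogenase gene, averaged 135 CPM in green, 215 CPM in green-white and 172 CPM in white leaves, against 38.1 CPM in wild type. DREB2A, a drought factor that JUB1 activates, averaged 115, 82.2 and 141 CPM in these 3 classes, against 23.7 CPM in wild type. It rose in all 3 (log2 fold changes of 2.27 ± 0.04 for green, 1.79 ± 0.04 for green-white and 2.57 ± 0.04 for white leaves). JUB1 itself was not called in white leaves, and a link between DREB2A and JUB1 was not tested. GA3OX1 and DWF4, hormone synthesis genes that JUB1 represses, differed from each other. GA3OX1 was higher in green (0.36 ± 0.10, adjusted p = 0.0034) and lower in white leaves (−2.50 ± 0.15, adjusted p = 8.6e-16), and DWF4 was lower in both (−1.78 ± 0.07 and −2.45 ± 0.08).

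GLK1 and GLK2, chloroplast-building factors whose proteins ORE1 binds and blocks, fell in all 3 classes. GLK1 averaged 121 CPM in green, 68.1 CPM in green-white and 20.7 CPM in white leaves, against 256 CPM in wild type, and its log2 fold change in white leaves was −3.63 ± 0.04 (adjusted p = 2.1e-35). GLK2 averaged 179, 79.3 and 47.3 CPM, against 257 CPM in wild type, with −2.44 ± 0.04 in white leaves (adjusted p = 3.5e-32).

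The 4 targets below were picked after their values were seen. NYC1, which starts chlorophyll b breakdown and is a target of the NAC019 group, gave log2 fold changes of −0.68 for green, 0.59 for green-white and 1.22 for white leaves, and SGR1, the magnesium-dechelating enzyme of chlorophyll breakdown, gave 0.41, 0.38 and 0.56. SAG113, a phosphatase gene that NAP activates, gave 2.61, 3.50 and 2.30, each called. NAP itself was below wild type in green and white leaves, and a link between SAG113 and NAP was not tested. BFN1, a nuclease gene that ORE1 activates, was lower in green (−0.68, adjusted p = 0.016), not called in green-white (−0.34, adjusted p = 0.16) and higher in white leaves (1.33).

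Senescence-associated genes other than SAG12 gave 9 higher and 4 lower of 14 in green leaves, 10 and 2 in green-white leaves and 11 and 1 in white leaves, with medians of 0.33, 0.39 and 0.71. The shares of all genes tested were 28.7%, 34.1% and 39.9% higher and 29.6%, 38.8% and 40% lower. With library totals alone 1 of the 14 was lower in green-white leaves and 0 in white leaves. SAG14, a blue copper-binding protein gene, averaged 697 CPM in green, 1511 CPM in green-white and 1903 CPM in white leaves, against 278 CPM in wild type. SEN1, which is also induced by darkness, and SEN4 were lower in green leaves (−0.77 ± 0.05 for SEN1 and −1.09 ± 0.03 for SEN4) and higher in white leaves (1.23 ± 0.04 and 0.81 ± 0.03). SAG21 rose in all 3 classes (1.23 ± 0.03 for green, 1.49 ± 0.03 for green-white and 1.51 ± 0.03 for white leaves), and gamma-VPE, a vacuolar processing protease, was slightly lower in white leaves (−0.11 ± 0.03, adjusted p = 0.00054), again less than that shift.

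The protease family of SAG12 was mixed. Of 26 papain-like cysteine protease genes, 22 were tested, and 7 were higher and 11 lower in green leaves, 7 and 12 in green-white leaves and 9 and 11 in white leaves, with medians of −0.20, −0.12 and −0.15. Among all genes tested, 28.7%, 34.1% and 39.9% were higher and 29.6%, 38.8% and 40% lower in these 3 classes. The count of 7 higher in green-white leaves became 11 with library totals alone. With library totals alone the median was 0.13 in green-white and 0.14 in white leaves. RD21C was, like SAG12, highest in white leaves, with 0.478 CPM in green, 2.14 CPM in green-white and 5.99 CPM in white leaves, against 0.578 CPM in wild type, and a log2 fold change of 3.36 ± 0.20 in white leaves (adjusted p = 3.5e-16). CEP1 (4.50), THI1 (2.24) and PAP1 (1.74), all 3 picked after their values were seen, were also higher in white leaves. RD19C, an abundant protease gene, rose by 0.46 ± 0.03 in white leaves. PAP4 (−4.85 ± 0.22), RDL5 (−3.50 ± 0.11), the xylem protease gene XCP2 (−2 ± 0.10) and RDL2 (−1.57 ± 0.07) fell in white leaves. RDL5 has a close copy, RDL4, so its counts are uncertain. PAP4 was at 0.163 CPM on average there, against 4.83 CPM in wild type.

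**Figure D4:**
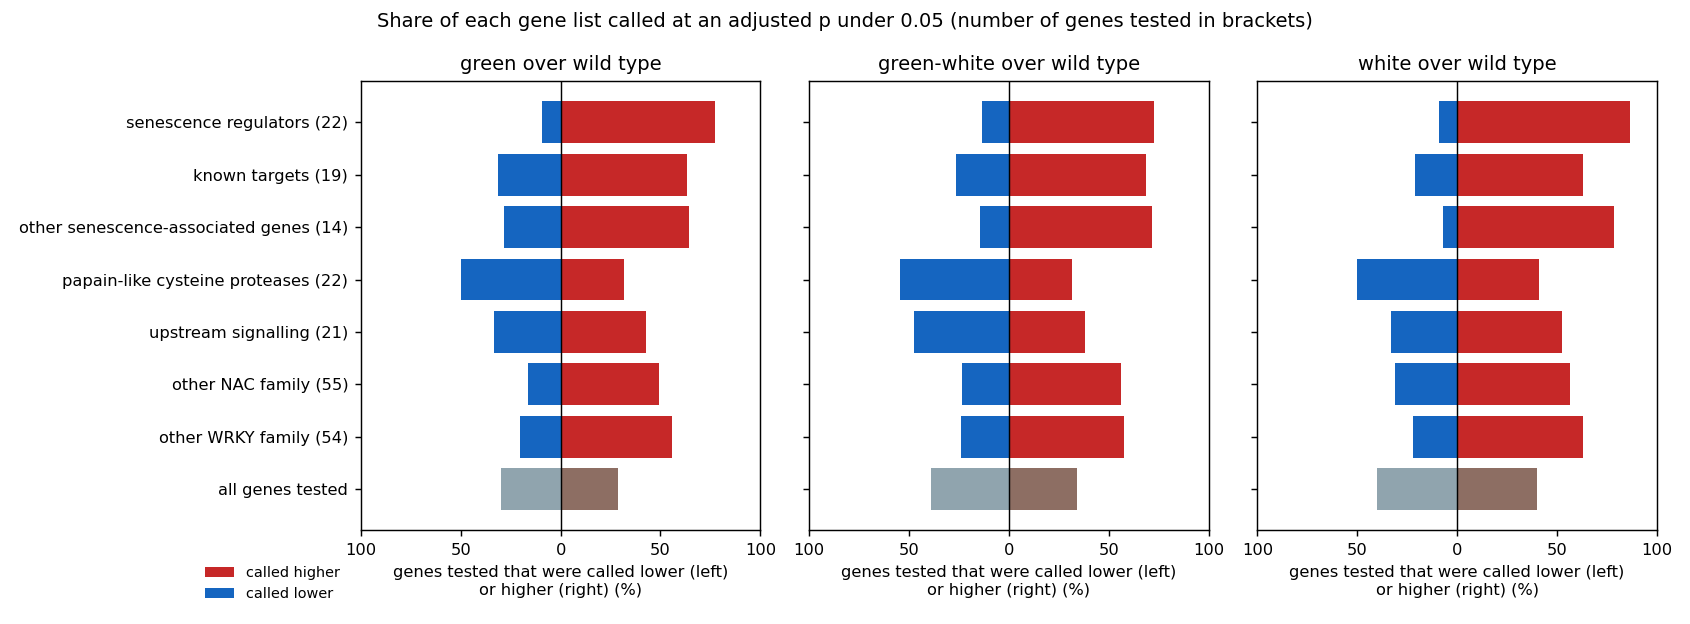
Share of the tested genes of each list called higher (right) or lower (left) than wild type in green, green-white and white leaves, with all genes tested in the bottom row; the horizontal axes run in percent from 0 outwards, and the family rows also hold 21 of the 22 regulators. The senescence regulators have long bars to the right, 19 of 22 in white leaves, while the papain-like cysteine proteases have longer bars to the left.

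Signalling genes known to act upstream of the members gave no common direction. Of 21, 9 were higher and 7 lower in green leaves, 8 and 10 in green-white leaves and 11 and 7 in white leaves, with medians of 0.01, −0.08 and 0.09. For all genes tested the shares were 28.7%, 34.1% and 39.9% higher and 29.6%, 38.8% and 40% lower. The 8 higher in green-white leaves became 5 with upper-quartile factors and without the library green-white B, and the 8 and 10 became 13 and 6 with library totals alone. The green median was −0.03 with upper-quartile factors, and the green-white median was 0.17 with library totals alone. PIF4 and PIF5, light-signalling factors that promote ORE1 expression in the dark, fell in all 3 classes, by −0.26 ± 0.03 and −0.19 ± 0.03 in green and by −1.20 ± 0.03 and −0.69 ± 0.03 in white leaves. MYC4, a jasmonate factor, fell by −2.15 ± 0.07 in white leaves, to 6.1 CPM, and ESP, whose protein binds WRKY53, by −1.12 ± 0.04. MYC2 and MYC3, also in this list, did not fall like MYC4. In white leaves MYC2 was at 433 CPM, with a log2 fold change of 0.23 (adjusted p = 2.3e-08). MYC3 was at 89.9 CPM there, with −0.03 (adjusted p = 0.53). ICS1, the salicylic acid synthesis gene, is counted in this list although WRKY75 in turn activates it. In white leaves ICS1 rose by 1.05 ± 0.05 and the clock gene GI by 0.87 ± 0.04.

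Likeness of profile was measured as the root mean square difference between centred log2 CPM over the 12 libraries, where 0 means the same profile, among 7868 genes with a symbol and a mean of at least 1 CPM. It is a description with no test, and all values share the same libraries. Profiles were not scaled by their spread, so genes that change little can be close while their patterns differ. NAP and WRKY53, for example, had log2 fold changes of −0.61 and 0.09 in white over green-white leaves. Among the members, NAC019 and WRKY75 were closest (0.225), ahead of NAP and WRKY53 (0.318), NAC019 and NAC055 (0.35) and ORE1 and ORS1 (0.416). The nearest genes to NAC019 were AGC2-1 (0.158), a protein kinase gene, ChlAKR (0.176), an oxidoreductase gene, and GPT2 (0.186), a plastid sugar phosphate translocator gene. NAC055 was nearest to SRO5 (0.118), WAKL10 (0.145) and NIT4 (0.15), and NAC072 to PNC2 (0.048), JAZ5 (0.067) and TRX5 (0.073). ORE1 was nearest to PBS3 (0.084), an enzyme gene of salicylic acid synthesis, EMB2766 (0.112) and GSTF3 (0.12), while ORS1 was nearest to MAC3B (0.048), PDE327 (0.059) and CHC1 (0.062). JUB1 was nearest to ASA1 (0.106) and ASB1 (0.115), the subunits of anthranilate synthase, and to MUR3 (0.132). NAP was nearest to A/N-InvD (0.119), VHA-E3 (0.146) and CSLA03 (0.152). WRKY53 was nearest to CPUORF47 (0.062), ASD1 (0.066) and PP2C74 (0.066), and WRKY75 to AGP2 (0.101), WRKY28 (0.17) and ChlAKR (0.206). SAG12 was nearest to SCPL7 (0.226), a carboxypeptidase-like gene, UVR3 (0.261) and RLP9 (0.365), and its nearest gene was farther than that of any other member. SAG12 had few counts outside white leaves, which adds noise to its profile.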

How the data were processed

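Strand-specific libraries of polyadenylated RNA were sequenced on a DNBSEQ platform, per the labels' protocols. Per the labels, SOAPnuke 1.5.2 removed poor reads, with option n at 0.05, q at 0.2 and l at 15, and HISAT2 2.0.4 placed the rest on TAIR10. Bowtie2, RSEM and DESeq2 appear in the submitters' processing notes with no version. Neither the annotation nor how the counting used strand is given in the sources used here.

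Each of the 3 tables that the authors deposited sets a mutant leaf class beside the same wild-type libraries. Per the file headers, the columns are read counts of each library, with the authors' log2 fold change and q-value. These deposited read counts are expected counts, 92.5% of them whole, and were rounded. Together the tables list 25169 genes (23214 in each), and the 9750 values missing from a table were taken as 0, since no unlisted gene exceeded a wild-type count of 0.9. The 18 columns of TPM per library and 12 columns of authors' means were not used: per-length levels, planned from TPM, are CPM per kb of annotated exon. Columns carry the letters A, B and C, which no label ties to the replicate numbers.

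Counts were analysed in R 4.3.3 with edgeR 4.0.16: TMM factors, the low-count filter by group, 1 mean per group over all 12 libraries, and the quasi-likelihood test for all 6 pairs of groups, with calls made under 0.05 after Benjamini-Hochberg adjustment. SE is the log2 fold change divided by the root of the F statistic. The common biological coefficient of variation was 0.0272, so small differences pass the test. Between libraries of 1 group, chi-square per gene was 1.57 to 3.86, more than sampling noise gives, and each library counted once. The workflow was tested on simulated data in which few genes differed between groups. That test does not bear on how the scaling acts when most genes are called. Alternatives were other scalings, DESeq2 1.42.0, no low-count filter, only the 6 libraries compared, and leaving out each library. Sequences and coordinates come from TAIR10.1, to whose annotation all 25169 gene codes matched.

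The 10 genes and the lists were chosen with earlier results of these data known. From each list, up to 4 genes of smallest adjusted p in white over wild type and up to 2 called in the other direction are named, and for each member its 3 nearest profiles, computed with a prior count of 2.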

Additional observations from a re-analysis of the deposited data

How the results depend on the processing

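No paired analysis was possible because the tables mark libraries by letter (A to C) instead of by replicate number. Of 720 fold changes of the 10 genes under an alternative, 687 kept their side of the threshold without a reversal, 26 lost their call, 3 gained one and 4 reversed. A change of sign was counted as a reversal only where either fit made a call. SAG12 in green leaves over wild type, never called, is among the 687. Its log2 fold change was −0.04, but 0.07 without the library green A and 0.15 without green B. All 4 reversals came with scaling by library totals alone: in green-white leaves over wild type NAP (0.14) and WRKY53 (0.14), in white leaves over wild type WRKY53 (0.27), and in white over green leaves NAC072 (0.10). The number of members called kept within 1.5 times in 133 of 144 settings. The others concern genes called lower: in green-white leaves over wild type, where it was 2, it was 1 with RLE factors, 0 with library totals alone, 1 with only the 6 libraries compared, 0 with DESeq2, and 0 to 2 without 1 library; in white leaves over wild type, where it was 1, it was 2 with upper-quartile factors; and in white over green leaves, where it was 2, it was 1 with library totals alone. The number of all genes called stayed within 1.5 times in 72 of 72 settings, and list counts in 1111 of 1152. The causes of the changes were not tested, apart from those of the scaling, whose construction shifts all genes. SAG12 in green and green-white leaves rests on few counts, and 3 libraries per group limit the precision.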
